A study of Mus musculus with 4 samples.

Results

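Rab GTPases are the small GTP-binding proteins that give each membrane of the cell its identity. The set described here holds every gene on the array whose single symbol is Rab, a number and at most 1 letter, except the pigment organelle members Rab27a, Rab32 and Rab38. It comes to 47 of the 12393 genes named on the array, covered by 90 of 20380 probe sets with a single gene symbol. Each gene is read from its brightest probe set, by mean signal over the 4 arrays. On that rule 38 of the 47 genes were bright enough to be tested, as were 7436 genes in all, and 9 fell under the filter, which kept the top 60% of genes by mean signal.

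The study measured RNA of cultured skin melanocytes, the pigment cells, from mice that have or lack the aryl hydrocarbon receptor (AhR), a transcription factor activated by dioxins and other small ligands. The wild-type group was 2 female C57BL/6 mice, and the AhR knockout group was 2 female AhRtm1Bra mice, in which exon 2 of Ahr is deleted. Epidermal cells of tail skin were taken from individual mice and kept for 6 to 8 weeks in serum-free Melanocyte Growth Medium, with no ligand named as added. The labels state no age for the animals, and they name the knockout mice by their allele with no strain background. Each array holds the amplified, biotin-labelled RNA of 1 mouse, so n is 2 in each group. Values are signal intensity on a linear scale, and their precision is limited by how few arrays there are.

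A Rab protein is made soluble, receives lipid anchors from a prenyl transferase with the help of an escort protein, and is then carried between membranes by GDP dissociation inhibitors. Exchange factors load it with GTP, in which state it binds effectors that tether, move or fuse vesicles, and GTPase-activating proteins switch it off. Melanosomes are organelles related to lysosomes. Their cargo passes through the endoplasmic reticulum, the Golgi and endosomes, which the Rab proteins described here serve, while the melanosome members act in the formation and transport of the organelle itself.

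Promoter windows from RefSeq (build GRCm38.p6), 250 bases before to 50 after a gene's start, are shown for the members at the ends of the range of differences. AhR and its partner ARNT bind DNA at a core of GCGTG, so both strands were searched for those letters, which also occur in the core of the hypoxia response element. Rab3b had the most positive difference of the tested members. Rab18 had the most negative one, and no window of it was searched. Rab8b came next, and its window is printed instead. Rab3b lies on the plus strand at chr4:108878820-108879119 and Rab8b on the minus strand at chr9:66919656-66919955. Capitals mark GCGTG read on either strand, which on the printed strand may appear as CACGC.

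Rab3b: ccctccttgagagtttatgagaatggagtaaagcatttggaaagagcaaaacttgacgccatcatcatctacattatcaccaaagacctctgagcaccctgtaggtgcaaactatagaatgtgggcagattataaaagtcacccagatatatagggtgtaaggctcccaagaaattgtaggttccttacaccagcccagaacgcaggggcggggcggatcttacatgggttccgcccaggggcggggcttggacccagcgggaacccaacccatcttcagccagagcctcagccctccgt

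Rab8b: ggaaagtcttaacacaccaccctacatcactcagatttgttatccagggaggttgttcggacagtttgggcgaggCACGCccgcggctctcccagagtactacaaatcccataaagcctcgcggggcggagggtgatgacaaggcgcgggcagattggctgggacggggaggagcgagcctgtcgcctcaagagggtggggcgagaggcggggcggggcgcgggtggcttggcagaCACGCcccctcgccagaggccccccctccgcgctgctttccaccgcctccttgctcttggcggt

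The Rab3b window holds 0 matches and the Rab8b window 2, beginning at bases 76 and 237 counted from its 5′ end. Among members below an unadjusted p of 0.05, all 5 genes with lower signal in the knockout and a searched window had at least 1 match. They were Rab1a, Rab5a, Rab8b, Rab10 and Rab21. Of 3 such genes with higher signal, 2 had a match (Rab3a and Rab34, each in 1 of its 2 windows). The share was 18 of 40 for the Rab genes searched, or 18 of 51 windows (35.3%). It was 10639 of 32851 windows of all genes (32.4%) and 52.8% of the 7941 windows of tested genes. By gene the share was 45% for the Rab genes, 59.5% for tested genes (3632 of 6103) and 35.2% for all genes. The Rab shares include members under the filter (Rab3c, Rab5b, Rab17, Rab25, Rab33a and Rab40b), of which only Rab40b had a match. They are therefore not like for like with the shares of tested genes. The median GC content was 65.3% in the windows of the lower genes, 60% in those of the higher genes, 62% over the Rab genes, 61.3% over tested genes and 52.7% over all windows, and its part in the matches was not tested. A match describes these letters only, and a window without one says no more than that they are not in it. Rab2a and Rab4a are further members with no window searched. Any member window on chr18 was left out of the search and of the Rab shares. The shares over all genes did not leave out that chromosome.

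Before the members, 3 facts of the arrays bear on every value. Ahr itself gave 825 and 874 on its brighter probe set in wild type 1 and 2, against 241 and 843 in AhR knockout 1 and 2. Where it lies relative to exon 2 is not given in the sources used here, so it does not check the labels. Cyp1b1, a known AhR target gene, read 1216 and 1410 in wild type against 14.0 and 23.1 in the knockout. AhR knockout 2 stood apart in its control probe sets, with a Gapdh 3' to 5' signal ratio of 11.9 against 1.98 to 2.85 on the other arrays, a measure of RNA integrity and amplification. Cell type markers moved with the groups too. Of the melanocyte markers, 7 of 8 tested were higher in the knockout, with a summed signal of 55160 to 69090 in wild type and 81490 to 108200 in the knockout. All 9 tested endothelial markers were lower (median log2 difference -1.67), with a summed signal of 21130 to 23070 against 4590 to 13760. Leukocyte markers had a summed signal of 1654 to 1691 in wild type and 3373 to 3788 in the knockout (median 0.80 over 4 tested, 3 higher), and Schwann and glial markers 6131 to 6369 and 10340 to 11940 (median 0.55 over 3 tested, 2 higher), both without overlap of the groups. Fibroblast markers gave 2676 to 5089 in wild type and 1670 to 2623 in the knockout, a narrow gap (median -0.92 over 4 tested, 3 lower). Keratinocyte markers overlapped, at 486 to 570 and 439 to 1690 (median 1.28 over 5 tested, 4 higher). Across these lists 0 markers were listed at 0. In bulk RNA, fewer cells of a type and less RNA per cell cannot be told apart. The part of RNA quality and of these markers in the results was not tested.

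No tested Rab gene passed the adjusted threshold of limma's test (0 of 38), where 0.955% of all tested genes did. The lowest adjusted p was 0.095, for Rab3b. Leaving out either knockout array raised the share that passed, for the members and for all genes alike. Such a fit holds 1 knockout mouse and measures spread between the wild-type arrays only. What is particular to that mouse or array then enters the calls, and the same holds in reverse without a wild-type array. Counts below with an array left out carry this limit. The median log2 difference of the members was -0.12 without AhR knockout 1 and -0.062 without AhR knockout 2. Fitting the Gapdh control ratio as a covariate put 13 members past the threshold (34.2%, beside 21.6% of all tested genes). That ratio is 11.9 in AhR knockout 2 against 1.98 to 2.85 on the other arrays, so it nearly marks that array. The fit therefore leans on AhR knockout 1 for the knockout group, and 4 arrays leave it little to measure spread with. Below an unadjusted p of 0.05 lay 11 members (28.9%), against 20.6% of all tested genes: Rab3b, Rab34, Rab4a and Rab3a with higher signal in the knockout (10.5%, against 7.68%), and Rab18, Rab8b, Rab5a, Rab10, Rab21, Rab1a and Rab2a with lower signal (18.4%, against 12.9%). The adjusted p of these 11 ran from 0.095 to 0.23 by limma, so their differences are given as measured values. Their folds ran from 1.70 to 2.54. Without wild type 2, 0 of the 38 members lay below 0.05, beside 5.96% of all genes. Without wild type 1 there were 8 (21.1%, beside 15.7%), of which 7 were among the 11. Without AhR knockout 2, the array with the high control ratios, there were 13 (34.2%, beside 27.6%), of which 10 were among the 11, and without AhR knockout 1 there were 14 (36.8%, beside 30.3%), of which 8 were.

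Across the 38 members, 16 were higher and 22 lower, and the median log2 difference was -0.13, against 0.0055 over all tested genes. The median size was 0.54 without regard to sign, against 0.47. The groups did not overlap in 18 members (47.4%), 6 above and 12 below, where the share over all tested genes was 55.4%. With a difference of at least 2-fold as well, 2 members were higher (Rab3b and Rab34; 5.26%, against 4.38%) and 4 lower (Rab5a, Rab8b, Rab10 and Rab18; 10.5%, against 10.3%). These shares sit near those of all genes. The count of 6 moved both up and down with 1 array left out. A group of 1 array lies clear of the other group more easily than a pair does, so those counts are not compared with it.

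**Figure D1:**
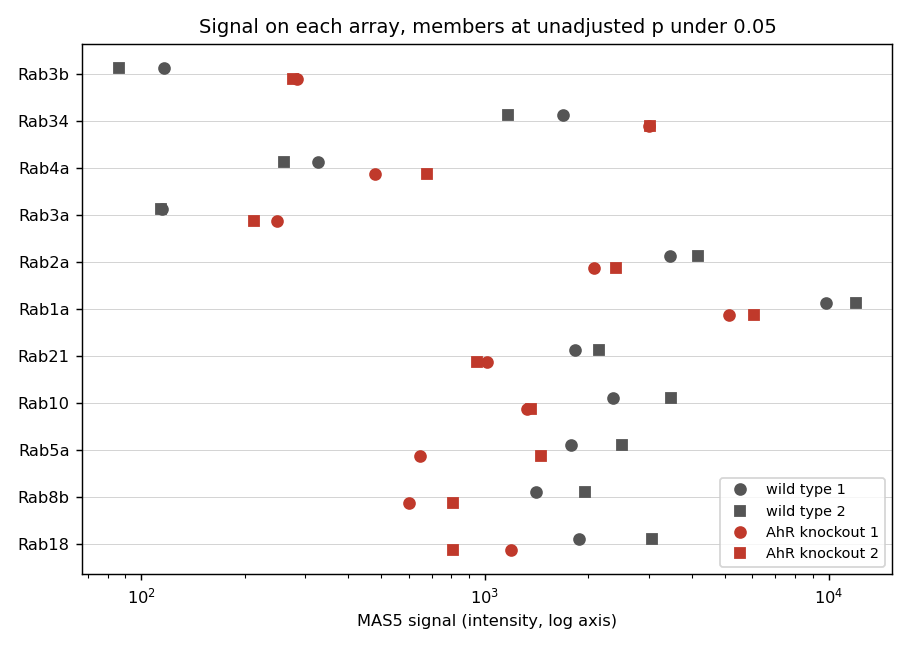
Signal intensity (log axis) of the 11 Rab genes below an unadjusted p of 0.05 on each of the 4 arrays; grey marks are wild type, red marks AhR knockout, circles replicate 1 and squares replicate 2. In all 11 genes the knockout marks lie clear of the wild-type marks. The narrowest gap, in Rab5a, is 1.22-fold and the widest, in Rab3b, 2.37-fold. Choosing genes by p on the same arrays favours such gaps, and the groups did not overlap in 55.4% of all tested genes.

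The Rab3 proteins sit on secretory vesicles and control regulated exocytosis. Rab3b read 117 and 86.4 in wild type 1 and 2, against 284 and 277 in AhR knockout 1 and 2. The knockout arrays were close to each other and both above the wild-type arrays, by 2.37-fold between the nearest arrays, and the log2 difference was 1.35 ± 0.36 (SE, unadjusted p = 0.0040, adjusted p = 0.095). Rab3a, best known from synaptic vesicles, read 115 and 114 in wild type against 249 and 213 in the knockout. The groups did not overlap, and the log2 difference was 0.92 ± 0.35 (adjusted p = 0.19). Rab3d, found on secretory granules, read 788 and 376 in wild type against 1262 and 853 in the knockout. Here the nearest arrays differed by only 1.08-fold, because wild type 1 was high. Its log2 difference of 0.91 ± 0.44 had an unadjusted p of 0.068. All 4 probe sets of Rab3d were higher in the knockout, with log2 differences of 0.91, 1.33, 0.71 and 1.14 from the brightest to the dimmest. Rab3c fell under the filter, at 0.72 and 1.78 in wild type against 18.9 and 11.4 in the knockout, too dim for a test. Its other probe sets, at 0.41 to 7.44, gave 0.10 and -0.25, so no direction is read for it. The 3 tested genes of the subfamily were all higher in the knockout, and 0 of them passed the adjusted threshold. The direction of Rab3a, Rab3b and Rab3d was the same under quantile normalization and with array medians set equal.

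Other exocytic members went the opposite way. Rab8b, which carries vesicles to the plasma membrane, read 1405 and 1957 in wild type against 600 and 810 in the knockout. Both knockout arrays were below both wild-type arrays, with a log2 difference of -1.23 ± 0.38 (unadjusted p = 0.0091, adjusted p = 0.12). A second Rab8b probe set read between 0.85 and 3.84 on the 4 arrays, close to no signal, and gives no second measurement. Rab10, known for delivering the glucose transporter GLUT4 and for basolateral sorting, read 2354 and 3472 in wild type against 1326 and 1367 in the knockout. The knockout arrays nearly coincided below the wild-type arrays, and the log2 difference was -1.08 ± 0.36 (adjusted p = 0.14). Its dimmer probe sets gave -0.35 and -1.01. Rab10 had the brightest probe set among the tested members of this class. Rab8a, the close relative of Rab8b, read 705 and 554 in wild type against 1007 and 260 in the knockout, so the knockout arrays lay on either side of wild type. The remaining tested member, Rab13, a regulator of tight junctions, had overlapping groups and a log2 difference of 0.28 ± 0.40. Among the 7 tested exocytic members the median was 0.28.

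Members of the early secretory route included the largest negative difference. Rab18, which acts at the endoplasmic reticulum and lipid droplets, read 1883 and 3063 in wild type against 1191 and 806 in the knockout. No array of one group reached the other, and the log2 difference was -1.28 ± 0.40 (unadjusted p = 0.0096, adjusted p = 0.13). Rab1a, which directs vesicles from the endoplasmic reticulum to the Golgi, read 9832 and 11990 in wild type against 5124 and 6090 in the knockout. Its knockout signal was thus lower on both arrays, with a log2 difference of -0.96 ± 0.28 (unadjusted p = 0.0066, adjusted p = 0.11). A second Rab1a probe set gave -0.64, with overlapping groups. Rab2a, which acts between the endoplasmic reticulum and the Golgi, read 3466 and 4170 in wild type against 2074 and 2410 in the knockout. The groups stayed apart, at -0.76 ± 0.33 (unadjusted p = 0.043, adjusted p = 0.23). Of its 7 probe sets, the 3 brightest gave -0.76, -0.96 and -0.71, and a dimmer one gave 0.20.

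Rab34, which resides at the Golgi and takes part in lysosome positioning and cilium formation, differed in the other direction. It read 1684 and 1167 in wild type against 2998 and 3026 in the knockout. Both knockout arrays were above wild type and almost equal, and the log2 difference was 1.09 ± 0.35 (unadjusted p = 0.012, adjusted p = 0.14). A second Rab34 probe set gave 1.07, with 1247 and 903 in wild type against 2145 and 2356 in the knockout. Rab6a, the Golgi member of retrograde transport, was lower on both knockout arrays without reaching 0.05 (-0.64 ± 0.34). Rab33b, a Golgi member that also binds the autophagy factor Atg16l1, read 3158 and 4231 in wild type against 2599 and 3565 in the knockout. Its groups overlapped, and the log2 difference was -0.26 ± 0.34. The 10 tested members of this class had a median of -0.22, with 1 higher and 3 lower below 0.05 (10% and 30%, beside 7.68% and 12.9% of all tested genes).

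**Figure D2:**
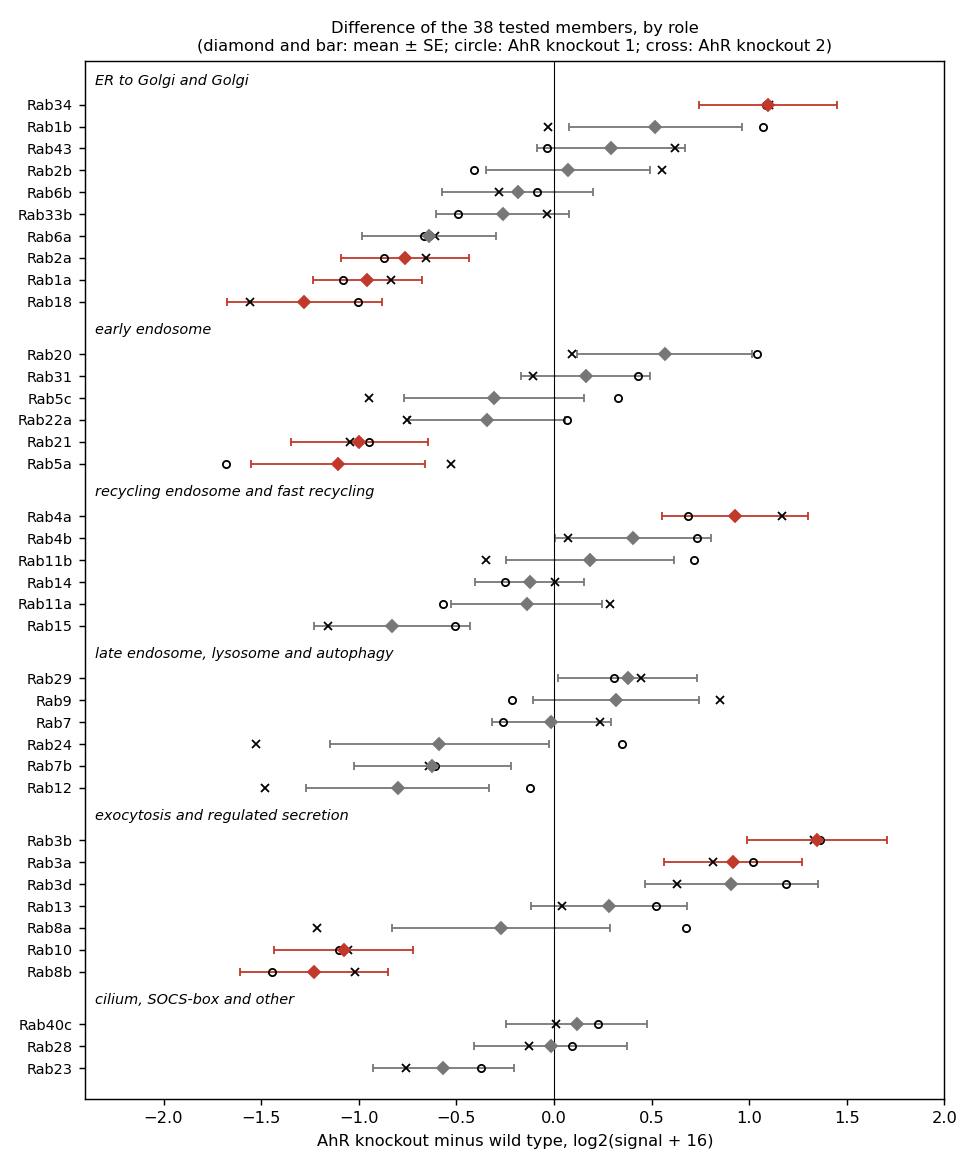
Log2 difference between AhR knockout and wild type on the log2(signal + 16) scale for the 38 tested Rab genes, grouped by role; diamonds with bars are the fitted difference ± SE (n = 2 and 2 arrays), red below an unadjusted p of 0.05, and open circles and crosses are AhR knockout 1 and 2 against the wild-type mean. Values run from -1.28 (Rab18) to 1.35 (Rab3b), and in Rab8a, Rab24 and Rab5c the circle and the cross lie far apart on opposite sides of 0.

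At early endosomes, the members with a p below 0.05 were lower in the knockout. Rab5a, which drives fusion of early endosomes, read 1778 and 2499 in wild type against 646 and 1456 in the knockout. The knockout arrays differed from each other by more than the wild-type arrays did, yet both were below wild type, and the log2 difference was -1.10 ± 0.45 (unadjusted p = 0.033, adjusted p = 0.21). Taken singly against the wild-type mean, AhR knockout 1 was at -1.68 and AhR knockout 2 at -0.53. Rab21, which takes up integrins from the cell surface, read 1828 and 2145 in wild type against 1018 and 952 in the knockout. Replicates were close in both groups and did not overlap, with a log2 difference of -0.996 ± 0.35 (adjusted p = 0.16). A dimmer Rab21 probe set gave -0.71. Rab31, which moves cargo between the trans-Golgi and endosomes, had the brightest probe set of the class, with 3896 and 3442 in wild type against 4943 and 3400 in the knockout. AhR knockout 2 lay below both wild-type arrays and AhR knockout 1 above them (0.16 ± 0.33). Rab5c, a relative of Rab5a in the same fusion step, read 1787 and 1344 in wild type against 1952 and 796 in the knockout, again on either side. Rab20 and Rab22a were the other tested members, at 0.57 ± 0.45 and -0.34 ± 0.40, both with overlapping groups.

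On the recycling route back to the plasma membrane, Rab4a alone of 6 tested had a p below 0.05 (16.7%, beside 20.6% of all tested genes). It serves fast recycling from early endosomes and read 328 and 260 in wild type against 481 and 678 in the knockout. The knockout arrays were both higher, with a log2 difference of 0.93 ± 0.37 (unadjusted p = 0.033, adjusted p = 0.21), and a second, dimmer probe set gave 0.74. Rab14, which links the Golgi and recycling endosomes, read 6769 and 7407 in wild type against 5945 and 7100 in the knockout, an overlap with a log2 difference of -0.12 ± 0.28. Rab11a, the main Rab of slow recycling, depended on the probe set. The brighter one read 2361 and 3162 in wild type against 1840 and 3338 in the knockout (-0.14 ± 0.39). The dimmer one read 1591 and 1763 in wild type against 672 and 790 in the knockout, clear of each other, with a log2 difference of -1.18 (unadjusted p = 0.0091, adjusted p = 0.15 by limma with every probe set fitted by itself). Rab11a was singled out after its values were seen. Rab15 was lower on both knockout arrays, at -0.83 ± 0.40 (unadjusted p = 0.065). The 6 tested members had a median of 0.03.

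Rab genes of late endosomes, lysosomes and autophagy, the route closest to melanosomes, gave no member below 0.05 among 6 tested. Over all tested genes 20.6% lay below it, so 6 genes are too few to read this as a difference. The median was -0.30. Rab7, the main late endosomal Rab, read 5662 and 5563 in wild type against 4680 and 6602 in the knockout. The wild-type arrays lay between the knockout arrays, and the difference was -0.01 ± 0.30. A second, dimmer Rab7 probe set gave -0.66, with 631 and 721 in wild type against 579 and 306 in the knockout. Rab12 had a log2 difference of -0.80 ± 0.47 that came mostly from AhR knockout 2 (-1.48, against -0.12 in AhR knockout 1). Rab7b was lower on both knockout arrays (-0.62 ± 0.40) and Rab29 higher on both (0.38 ± 0.35). Rab9 and Rab24 had overlapping groups. In the small class of ciliary and other members, Rab28 had the brightest probe set, with 685 and 1136 in wild type against 943 and 807 in the knockout, and its difference was -0.02 ± 0.39. Rab23, an inhibitor of hedgehog signalling, was lower on both knockout arrays at -0.57 ± 0.36, and Rab40c was at 0.12 ± 0.36.

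**Figure D3:**
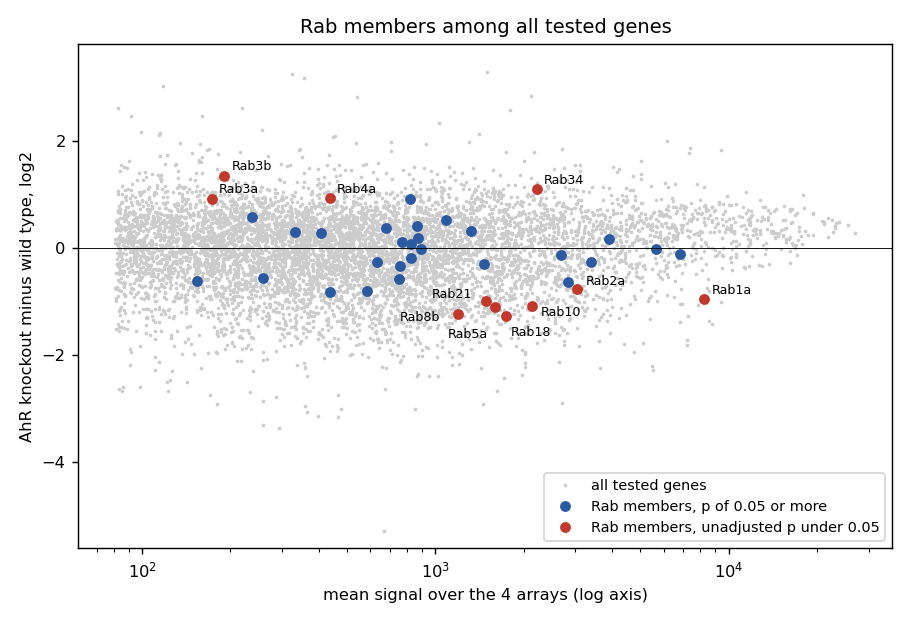
Log2 difference (AhR knockout minus wild type) against mean signal over the 4 arrays (log axis) for all 7436 tested genes (grey) and the 38 tested Rab genes (blue, or red and named below an unadjusted p of 0.05). The Rab genes lie inside the cloud of all genes; the red points with higher knockout signal are below a mean of 500 except Rab34, and those with lower knockout signal are above it.

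Dim and bright members differed in the sign of their medians, a pattern that was not tested. Of the 9 tested members with a mean signal under 500, 3 were higher and 0 lower below a p of 0.05, where all genes in that range gave 7.28% higher and 11.7% lower. The median was 0.29, against 0.0035. Of the 19 members from 500 to 2000, 0 were higher and 4 lower (21.1%), where all genes gave 6.18% and 15.3%, and the median was -0.19, against -0.08. Of the 10 members over 2000, 1 was higher and 3 lower, where all genes gave 12% and 11.4%, and the median was -0.20, against 0.17. In that brightest range the Rab genes and all genes thus had medians of opposite sign.

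Close relatives were compared as ratios within each array, which a scaling of a whole array leaves nearly as they are. Of 11 pairs, the knockout ratios lay clear of the wild-type ratios in 3. They lay below in each, a sign that depends on which gene is named first. A random order of the arrays puts 2 clear of the other 2 in 33.3% of cases. The log2 ratio of Rab1a to Rab1b was -2.15 in AhR knockout 1 and -0.80 in the other, relative to the wild-type mean, where the wild-type arrays were at -0.37 and 0.37. Rab1b, which shares the step of Rab1a, had itself a log2 difference of 0.52 ± 0.44 with overlapping groups, read from 994 and 719 in wild type against 1793 and 827 in the knockout. The Rab2a to Rab2b ratio was -0.46 and -1.21 against -0.27 and 0.27. It rests on the brightest Rab2b probe set, with a log2 difference of 0.07. The dimmer Rab2b probe sets gave -0.45, -0.59, 0.48 and -0.06 in order of signal, and no ratio was taken with them. The Rab3a to Rab3b ratio was -0.34 and -0.52 against -0.18 and 0.18. In the other 8 pairs the ranges overlapped, Rab5a to Rab5c (-2.01 and 0.42 in the knockout) and Rab8a to Rab8b (2.12 and -0.20) being widest. An exact permutation test of 2 against 2 arrays cannot give a two-sided p below 0.333, and no model was fitted to these ratios.

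**Figure D4:**
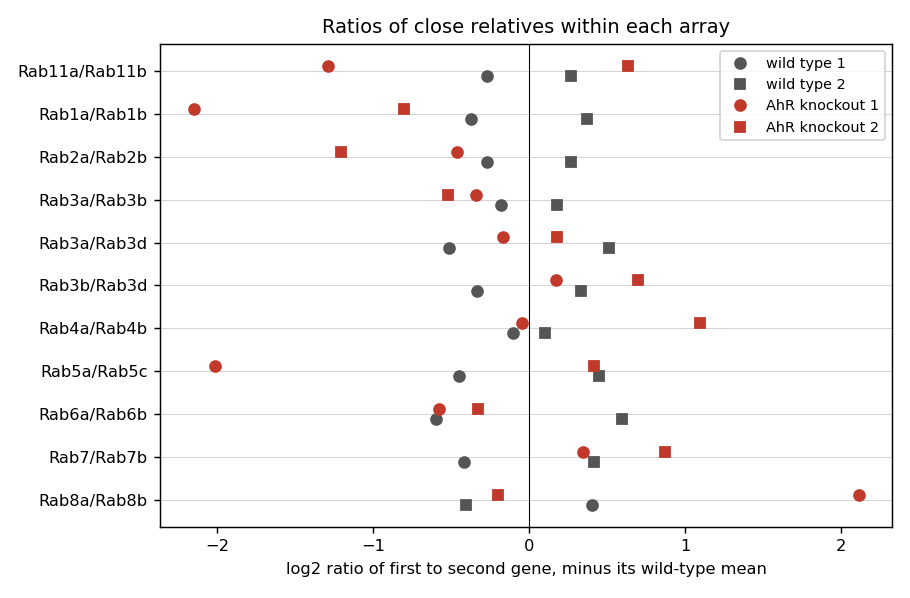
Log2 ratio of the signals of 11 pairs of related Rab genes within each array, set relative to the wild-type mean of that pair (0); grey is wild type, red AhR knockout, circles replicate 1 and squares replicate 2. Red marks lie below both grey marks for Rab1a/Rab1b, Rab2a/Rab2b and Rab3a/Rab3b, and overlap the grey range in the other pairs.

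The probe sets of a gene mostly pointed the same way. Of the 38 tested members, 22 had several probe sets, and in 0 of these did any 2 differ in sign with a size of 0.5 or more on both. Of the 11 members below 0.05, 8 had several and 3 (Rab3a, Rab3b and Rab5a) rest on a single one. The 8 include Rab8b, whose second probe set is close to no signal, so it too rests on 1. They also include Rab18, whose second probe set is dim (mean signal 41.1, log2 difference -0.50). The 9 members under the filter had mean signals of 3.67 to 47.5. Their groups overlapped in 6, and none had a difference of 2-fold on the log2(signal + 16) scale. Besides Rab3c, Rab27b was named after its values were seen: this relative of the melanosome member Rab27a read 14.0 and 33.3 in wild type against 6.60 and 2.47 in the knockout, which on that scale is -0.91. Without the filter both had an unadjusted p below 0.05. The melanosome members differed among themselves: Rab38 had a log2 difference of 1.47 ± 0.44 (adjusted p = 0.12 by limma), Rab32 of -0.22 ± 0.36, and Rab27a was under the filter.

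The machinery that runs the Rab cycle gave no gene past the adjusted threshold either, in 4 lists. For prenylation and membrane cycling, 0 of 15 tested genes passed, 0 were higher and 2 lower (13.3%) below an unadjusted p of 0.05, where all tested genes gave 7.68% and 12.9%, and the median was -0.18, against 0.0055. That median was -0.47 without wild type 1, -0.033 without wild type 2 and 0.01 without AhR knockout 1. Yipf4, a Golgi membrane protein of the family that binds Rab proteins, read 1691 and 1456 in wild type against 818 and 494 in the knockout (-1.28 ± 0.39, adjusted p = 0.12 by limma). The lower knockout arrays were clear of wild type. Zmpste24, a protease that processes prenylated proteins, was at -0.75 ± 0.32. Rabac1, a membrane receptor for prenylated Rab proteins, was at 0.74 ± 0.39, and Rabggtb, the catalytic subunit of the Rab prenyl transferase, at -0.93 ± 0.50, neither below 0.05.

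Of 23 tested exchange factors 0 passed, 0 were higher and 3 lower (13%, beside 12.9% of all genes) below 0.05, with a median of 0.02. The median was -0.16 without wild type 2 and -0.12 without AhR knockout 2. Sh3bp5, an exchange factor for Rab11, read 3542 and 3820 in wild type against 1894 and 995 in the knockout (-1.41 ± 0.39, adjusted p = 0.10 by limma). Both knockout arrays were lower. Dennd4c, the exchange factor of Rab10, was at -1.13 ± 0.40 and Ccz1, part of the exchange factor of Rab7, at -0.90 ± 0.37. Rin2, which acts on Rab5, was at -0.75 ± 0.36. Dennd4c was lower beside a lower Rab10, and Ccz1 beside a Rab7 difference near 0.

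Of 17 tested GTPase-activating proteins 0 passed, 0 were higher and 3 lower (17.6%, beside 12.9% of all genes) below 0.05, with a median of -0.20. The median was -0.31 without AhR knockout 1 and 0.017 when probe sets were averaged. With probe sets averaged, only 14 of the list were tested. The 3 lower genes were Tbc1d23 (-1.30 ± 0.40), a Golgi tethering factor, Evi5 (-1.36 ± 0.57), whose groups overlapped, and Rabgap1 (-0.86 ± 0.39). Tbc1d15, which acts on Rab7, was at -0.94 ± 0.48 with a p above 0.05.

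Of 33 tested effectors 0 passed, 3 were higher and 6 lower (9.09% and 18.2%, beside 7.68% and 12.9% of all genes) below 0.05, with a median of -0.26. The median turned to 0.042 without AhR knockout 1 and was -0.094 after quantile normalization. Lrrk2, a kinase that phosphorylates Rab8, Rab10 and others, read 246 and 467 in wild type against 63.5 and 99.9 in the knockout. Both knockout arrays were far below wild type, and its adjusted p of 0.065 by limma was the lowest of the 4 lists (-1.89 ± 0.42). Eea1, the tether that binds Rab5 on early endosomes, read 74.1 and 205 in wild type against 24.9 and 44.7 in the knockout (-1.50 ± 0.48). Ehbp1, which binds Rab8 and Rab10, was at -1.11 ± 0.38, and Uso1, the tether that binds Rab1, at -1.26 ± 0.44. The 3 effectors that were higher below 0.05 were Rilpl2 (1.05 ± 0.39), which binds phosphorylated Rab8 and Rab10, Mlph (1.12 ± 0.44), which links Rab27a to myosin Va on melanosomes, and Osbpl1a (1.11 ± 0.49), a Rab7 effector, all named after their values were seen. Effectors of the same Rab thus lay on both sides, as Ehbp1 and Rilpl2 for Rab10. With 1 array left out, a group rests on 1 mouse without a measured spread, so genes past the adjusted threshold are not counted for the lists.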

How the data were processed

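RNA of 4 melanocyte cultures, each from 1 mouse, was measured on 1-colour Affymetrix arrays. The deposited values are linear signal intensity that the authors made with MAS5 (version not stated), per the submitters' processing notes. What was done about background, detection calls and filters is not given in the sources used here. Trimmed to its middle 96%, each array averaged 500.2 to 500.3, so all carry the same overall level. All 4 columns were used, and 0 others hold sample values.

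Of 22690 probe sets, 64 were controls, 20380 had 1 gene symbol, 691 several and 1555 none in the platform annotation; symbols were updated from RefSeq (GRCm38.p6), where 20351 matched. Each gene took its brightest probe set. Values were converted to log2(signal + 16), which understates the folds of dim genes, and genes in the top 60% by mean signal (81.1 and above) were tested in R 4.3.3 by limma 3.58.1 (lmFit, eBayes with trend). P-values were adjusted by Benjamini and Hochberg's method over all 7436, with a threshold of 0.05. Each difference is the knockout mean less the wild-type mean, with limma's SE. The model was tested on simulated data with 2 arrays a group. At the adjusted threshold it recovered 20.4% of 2-fold and 94.15% of 4-fold changes, and 7.3% of its calls were false. Figures used matplotlib 3.10.9 in Python 3.11.15.

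The members, role classes, lists, markers and tests were chosen with earlier results of these data known. Named with their values are members below an unadjusted p of 0.05, those separated and at least 2-fold, the 5 with the brightest probe sets, the brightest of each role class, members under the filter that are separated and at least 2-fold, members whose probe sets have opposite signs, and up to 4 genes of each list by smallest p. Promoter windows for the ends of the range come from RefSeq; protein sequences were not used here. Titles number the mice 1 and 2 in both groups without stating a shared litter or day, so no block was used. Alternatives were other normalizations, pseudocounts, filters, probe set rules, eBayes settings, thresholds, a replicate block, the leaving out of single arrays and a covariate for the Gapdh ratio. A filter by mean log2 was chosen after seeing the data.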

Additional observations from a re-analysis of the deposited data

How the results depend on the processing

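None of the 11 members below an unadjusted p of 0.05 changed direction in any of its 15 to 16 settings, each being below 0.05 in 10 to 15 of them. The lack of change was largely fixed in advance. The groups do not overlap in these 11, so leaving out 1 array cannot turn the direction. The filter, eBayes and block settings do not alter the difference. The replicate block (the number in the title) called 9 members at an adjusted p below 0.05 (23.7%, beside 18.9% of all genes), and the Gapdh covariate called 13 (34.2%, beside 21.6%), while an adjusted p of 0.10 gave 1. The covariate nearly marks AhR knockout 2, so its count leans on AhR knockout 1 in the knockout group. Leaving out 1 array leaves a group of 1 mouse without a measured spread, so calls from those fits are not counted here. With the replicate block, 2, 2, 3 and 8 genes were called in the cycling, exchange factor, GTPase-activating and effector lists. With the covariate, 2, 4, 4 and 11 were called. Same-numbered arrays deviated together (r = 0.35 across 7436 genes, which are not replicates), but 2 pairs and unexplained numbers do not establish a pairing.

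The count below an unadjusted p of 0.05 was 17 of 67 with every probe set by itself and 0 to 14 with 1 array left out. The count separated by at least 2-fold was 10 after quantile normalization, 11 with every probe set and 16 at 1.5-fold. The median of -0.13 became -0.042 with equal array medians, -0.017 with no filter, -0.22 with the mean of probe sets, -0.26 with every probe set and -0.058 with the covariate, and -0.12 to -0.062 with 1 array left out. Over all genes the count called was 71, and 25 after quantile normalization, 43 at a pseudocount of 1, 1 with no filter, 20 in the top 40%, 37 with the mean of probe sets, 30 with every probe set, 1406 with the replicate block, 1604 with the covariate, and 20 to 1360 with 1 array left out.

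For the 4 lists in the order above, the count below an unadjusted p of 0.05 with 1 array left out was 0 to 6, 1 to 5, 0 to 6 and 1 to 12. The replicate block gave 6, 6 and 5 in the first 3 and the covariate 6, 5 and 7. For cycling it was 1 with equal array medians, 1 without the eBayes trend and 6 with every probe set. For exchange factors it was 6 with the mean of probe sets and 5 with every probe set. For GTPase-activating proteins it was 1 after quantile normalization and 0 of 14 tested with the mean of probe sets. For effectors it was 5 in the top 40%. List medians with 1 array left out were -0.47 to 0.010 (cycling), -0.16 to 0.068 (exchange factors), -0.31 to -0.12 (GTPase-activating proteins) and -0.31 to 0.042 (effectors). The exchange factor median was 0.12 after quantile normalization, 0.10 with equal array medians, -0.22 in the top 40% and -0.11 with every probe set. That of GTPase-activating proteins was 0.017 with the mean of probe sets and -0.36 with the covariate, and that of effectors -0.094 after quantile normalization and -0.093 with every probe set.

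Directions turned in 17 members with p above 0.05. The covariate gave 0.13 (Rab24), 0.021 (Rab28), -0.27 (Rab2b), 0.19 (Rab5c), 0.45 (Rab8a) and -0.085 (Rab9). Equal array medians gave 0.071 (Rab28) and 0.076 (Rab7), quantile normalization 0.12 (Rab28) and the mean of probe sets -0.11 (Rab2b). With 1 array left out the range was -0.031 to 1.07 for Rab1b, -0.41 to 0.55 for Rab2b, -0.95 to 0.33 for Rab5c, -0.51 to 0.14 for Rab6b, -0.26 to 0.23 for Rab7, -1.22 to 0.67 for Rab8a, -0.21 to 0.85 for Rab9, -0.57 to 0.29 for Rab11a, -0.35 to 0.72 for Rab11b, -0.076 to 0.64 for Rab13, -0.25 to 0.0038 for Rab14, -0.75 to 0.067 for Rab22a, -1.53 to 0.35 for Rab24, -0.38 to 0.34 for Rab28, -0.11 to 0.43 for Rab31, -0.0032 to 0.24 for Rab40c and -0.036 to 0.62 for Rab43. The cause of these turns was not tested. With 2 arrays a group, a difference must far exceed the spread between arrays to pass, and dim probe sets sit near the background.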
